A study of Pseudotaxus chienii with 9 samples.

Results

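The genes described here are annotated to pathways of long fatty chains, among them those of the plant surface. They are 132 of the 26827 genes in the expression table of Pseudotaxus chienii, a Chinese conifer related to the yews. They were chosen by the pathway column of the table, as genes annotated to cutin, suberine and wax biosynthesis (83 genes) or to fatty acid elongation (49 genes), with 0 genes in both. A further 7 genes of these pathways were left out because their descriptions name CYP94 or CYP725 enzymes, lipoxygenases or peroxidases. The 132 genes carry 17 KEGG ortholog entries and were sorted by these into 15 roles, because 65 of the gene descriptions name only an unknown, hypothetical or uncharacterized protein.

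Messenger RNA of leaves was sequenced in 9 libraries, 3 in each of 3 groups. Libraries labelled CK are the controls, and the other groups are labelled as treated with methyl jasmonate (MeJA, a volatile plant hormone of wounding and defence) for 1 day or for 2 days. The labels name no genotype, plant age, mock treatment or sampling time of CK, so handling and time cannot be told apart from MeJA. Whether each library is a different plant is not labelled, and p-values therefore cover only the scatter of these libraries. This scatter exceeded counting error, with a chi-square per degree of freedom of 105 to 996 between 2 libraries of a group. It could come from different plants or from technical handling of the samples, which was not tested.

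Cutin and wax form the cuticle, the water barrier that the leaf epidermis secretes, and suberin is a related polymer of inner and wounded tissues. Wax begins with very-long-chain fatty acids, built in the endoplasmic reticulum by a cycle of condensation, reduction, dehydration and a further reduction. The chains are then turned into alkanes, alcohols and wax esters, while cutin and suberin monomers are made by cytochrome P450 enzymes that put a hydroxyl group on the end of the chain.

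After 1 day of MeJA, some condensing enzymes of chain elongation, some chain-end hydroxylases and 2 feruloyl transferase-type genes were called lower than CK. After 2 days the members' estimates were split by sign, with 54 negative and 49 positive. Of the 103 members with enough reads to be tested (edgeR quasi-likelihood test, Benjamini-Hochberg adjustment over 22384 genes, threshold 0.05), 12 were called after 1 day (11.7%, against 5.34% of all genes tested), 9 lower and 3 higher than CK. Among all genes, 1.0% were called lower and 4.34% higher at that time. The members' shares were 8.74% and 2.91%, so the lower calls exceeded the background share and the higher calls did not. After 2 days 4 members were called (3.88%, against 4.95% of all genes), 1 lower and 3 higher, where all genes had 0.858% and 4.09%.

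Setting the mean of both treated groups against CK called 21 members (20.4%, against 8.38% of all genes), 17 lower and 4 higher, where all genes had 2.57% and 5.81%. This comparison uses the same CK libraries as the others and is not independent of them. All 6 treated libraries lay below all 3 CK libraries in 24 tested members (23.3%, against 12.4% of all genes), and above them in 9 (8.74%, against 13.1%). After 1 day 37 members lay below CK without overlap (35.9%, against 17.7% of all genes) and 10 above it (9.71%, against 17.5%). After 2 days these were 26 (25.2%, against 19.8%) and 23 (22.3%, against 21.0%). The median log2 fold change of the tested members was -0.27 after 1 day, -0.13 after 2 days and -0.38 for both treated groups, where the median over all genes was 0.03 in each case. The sign of the members' median turned for both treated groups in DESeq2 (0.07) and without a count filter (0.05), which take in members of low counts, and at day 2 in these settings (0.09 and 0.06) and without CK library 2 (0.01). The 29 members that were not tested reached at most 0.84 FPKM (fragments corrected for the length of the gene and the depth of the library, a level that can be compared between genes) in any library. They include 12 of the 31 CYP86B-type hydroxylases and 7 of the 9 mitochondrial enoyl reductases.

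Most calls depended on every CK library being present, and calls over all genes fell as well. Every call of a member was lost without CK library 2 and without CK library 3, except that of the synthase PchiChr5G133230 for both treated groups. Without CK library 1, that call and the one of PchiChr1G003330 for both treated groups were kept. The count for both treated groups was 2, 1 and 1 without CK library 1, 2 or 3, 8 without day 1 library 3, and 12, 6 and 9 without day 2 library 1, 2 or 3. Over all genes, 1875 calls became 327, 571 and 312, then 1330, then 1202, 1253 and 1146, in the same order. The count for day 1 was 0 without any 1 of the CK libraries, 1 without day 1 library 3, and 6 and 5 without day 2 libraries 1 and 3. Over all genes, 1196 calls became 134, 356 and 142, then 796, then 689 and 594. The count for day 2 was 0 without any 1 of the CK or day 2 libraries, 2 without day 1 library 1 or 3, and 13 without day 1 library 2. Over all genes, 1107 calls became 48, 372 and 204 without CK library 1, 2 or 3. They became 665, 432 and 499 without day 2 library 1, 2 or 3. Without day 1 library 1, 2 or 3, the counts were 799, 2893 and 790. When only the CK and day 1 libraries were fitted, 2 of the 12 day 1 calls were kept, those of the feruloyl transferase-type neighbours PchiChr10G295030 and PchiChr10G295040 (adjusted p = 0.0283 and 0.0444). Over all genes, that fit called 534. The elongase PchiChr6G180970 then had too few counts to be tested, and the 9 other genes had adjusted p of 0.0544 to 0.0891.

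**Figure D1:**
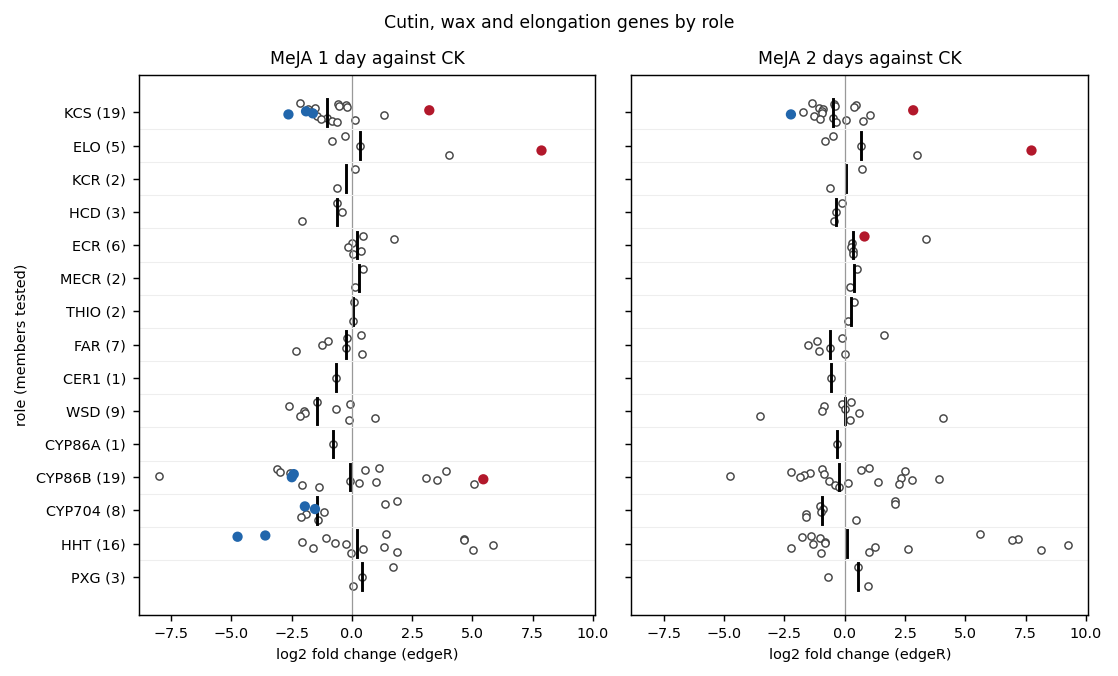
Log2 fold change against CK (edgeR, horizontal axis) of each tested member, by role, with the number tested in brackets; the left panel is MeJA for 1 day and the right panel MeJA for 2 days. Filled points are called lower (blue) or higher (red), open points are not called, and black bars are role medians, which reach -1.04 for KCS and -1.47 for CYP704 after 1 day.

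Depth was similar between libraries, at 48893949 to 58703021 estimated counts, with 98 to 117 members above 0. The treated libraries numbered 2 stood apart. Of the 74 members with a mean of at least 1 FPKM, 41 had the lowest of their 9 values in day 1 library 2 and 12 in day 2 library 2, while 32 had the highest in CK library 2. Without both treated libraries 2, members called were 2 higher and 14 lower after 1 day, 4 higher and 7 lower after 2 days, and 5 higher and 20 lower for both treated groups. Calls over all genes, in either direction, were then 1803, 2430 and 3436, against 1196, 1107 and 1875 with all libraries. The leaf label was checked with chlorophyll a-b binding proteins, taken as mesophyll markers, which summed to 5190 to 6880 FPKM in CK, 444 to 3700 after 1 day and 359 to 2190 after 2 days, with 0 of 7 tested genes called and 1 of 9 at 0 in day 1. Their lowest sums were in day 1 library 2 and day 2 library 2.

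Markers of other tissues were summed in the same way. Guard cell markers summed to 10.8 to 14.1 FPKM in CK, 8.09 to 15 after 1 day and 5.71 to 8.58 after 2 days, with none of the 4 genes at 0 in a whole group and 1 called lower for both treated groups. Woody tissue markers summed to 15.3 to 20.4, 10.4 to 124 and 15.4 to 27.0 FPKM, with the highest value in day 1 library 2, 0 of 16 called, and 8, 5 and 3 of 26 at 0 in CK, day 1 and day 2. These markers went both ways. In day 1 library 2 the laccases PchiChr8G230760 and PchiChr8G230780 stood at 51.6 and 23.6 FPKM. The cellulose synthase PchiChr10G293240 was at 12.6, 7.47 and 11.1 FPKM in CK and 4.54 in that library. Whether the laccases mark woody tissue in these leaves was not tested. Reproductive and seed markers summed to 386 to 564, 1100 to 2850 and 878 to 2570 FPKM, with 11 of 32 called higher at each day. For both treated groups 11 were called higher and 1 lower. Of the 35 genes in this list, 3 were at 0 in CK and 3 at day 1. Most are named pollen allergens, and these went both ways. Means in CK, day 1 and day 2 were 2.85, 118 and 95.6 FPKM for PchiChr1G029240, and 14.0, 8.09 and 7.55 for PchiChr5G131570. The seed marker oleosin PchiChr1G008180 did not rise, with means of 66.2, 54.6 and 40.3 FPKM. Whether the allergen-named genes mark reproductive tissue in these leaves was not tested. The part of these shifts in the members' changes was not tested. In RNA from whole leaves, fewer epidermal cells and less RNA per epidermal cell cannot be told apart.

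**Figure D2:**
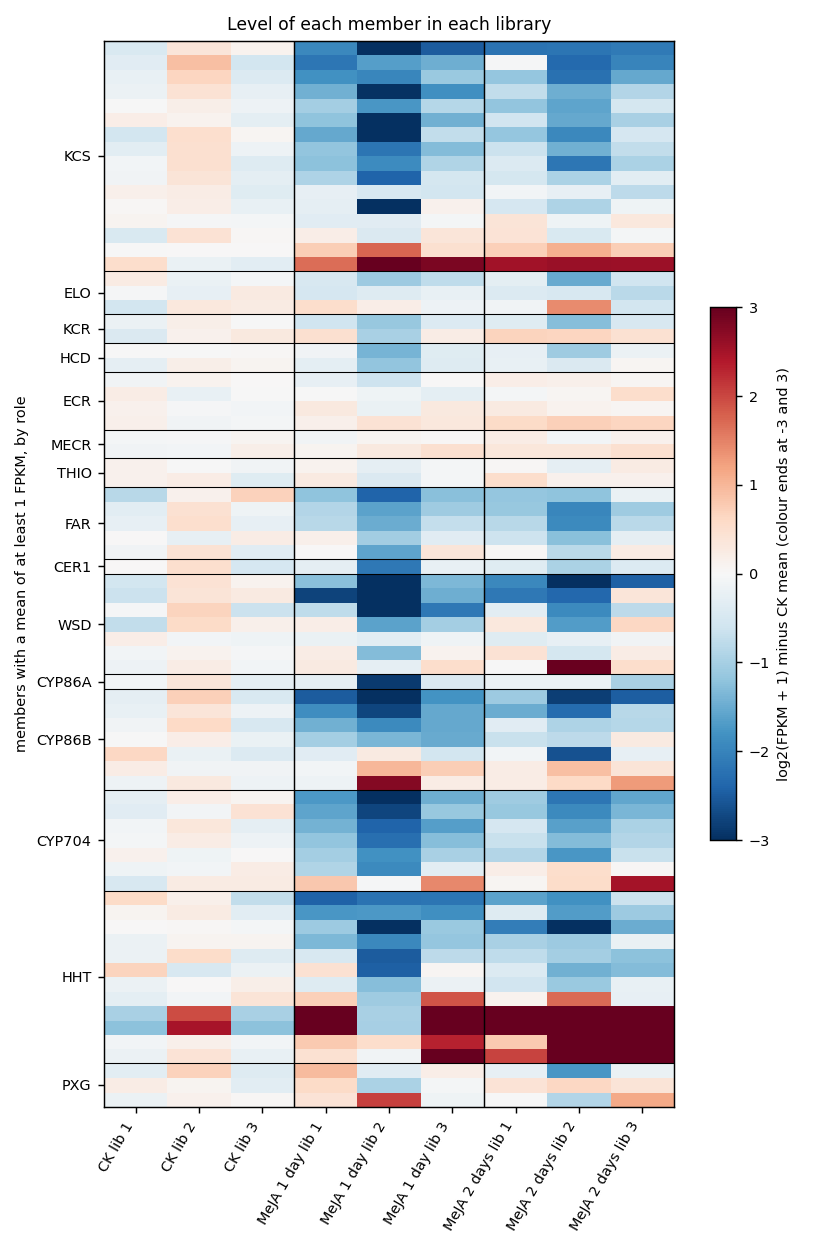
Level of each member with a mean of at least 1 FPKM (rows, grouped by role) in each of the 9 libraries (columns), as log2(FPKM + 1) minus the mean of the CK libraries; blue is below and red above CK. Day 1 library 2 holds the lowest of the 9 values for 41 of the 74 members shown.

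The 3-ketoacyl-CoA synthases (KCS) catalyse the condensing step and set which chain lengths are made. KCS transcripts fell in part: of 21 genes, 19 were tested, and 3 were called lower and 1 higher after 1 day, 1 lower and 1 higher after 2 days, and 4 lower and 1 higher for both treated groups. The median log2 fold change was -1.04 after 1 day and -0.50 after 2 days, and 16 and 13 of the 19 estimates were negative. The summed level of all 21 genes was 500, 743 and 491 FPKM in the CK libraries, 273, 202 and 328 after 1 day, and 392, 258 and 383 after 2 days. All treated sums lay below all CK sums, and the lowest was that of day 1 library 2.

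The strongest synthase in CK was PchiChr3G075660, on chromosome 3, block 1, 324938704 to 324943652. It stood at 136, 210 and 130 FPKM in CK, at 56.4, 19.0 and 42.6 after 1 day, and at 92.8, 55.4 and 83.9 after 2 days. No treated library reached the CK range, and day 2 lay between the other groups in every library except day 2 library 2, which was just below the highest value of day 1. It fell after 1 day (log2 -1.90, SE 0.40, edgeR adjusted p = 0.0356), while the day 2 estimate of -0.94 (SE 0.39) did not pass (adjusted p = 0.187). The day 1 call was also lost without day 1 library 3, day 2 library 1 or day 2 library 3, at adjusted p of 0.059 to 0.0809.

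PchiChr5G133230 (chromosome 5, block 1, 318036304 to 318038109) had the lowest p of the synthases for both treated groups against CK. It was at 29.0, 52.0 and 43.0 FPKM in CK, 9.75, 2.54 and 6.29 after 1 day, and 7.81, 7.97 and 8.51 after 2 days. The treated libraries lay far below CK and those of day 2 were close together. It fell 6.19-fold after 1 day (log2 -2.63, SE 0.45, edgeR adjusted p = 0.0197) and 4.70-fold after 2 days (log2 -2.23, SE 0.44, adjusted p = 0.0311). The day 1 call was also lost without day 1 library 3 (adjusted p = 0.0519), and the day 2 call without any 1 of the day 2 libraries (adjusted p of 0.0788 to 0.0925). For both treated groups (log2 -2.43, SE 0.35, adjusted p = 0.00919) it passed with each library left out in turn, at adjusted p between 0.0039 and 0.0484.

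Its neighbour PchiChr5G133220, a further synthase, was lower expressed, at 11.7, 21.1 and 13.3 FPKM in CK, 5.95, 2.5 and 5.40 after 1 day, and 9.09, 4.81 and 8.53 after 2 days. All treated values lay below CK. It fell after 1 day (log2 -1.62, SE 0.37, edgeR adjusted p = 0.0462), but that call was lost with any 1 of the 9 libraries removed, with adjusted p of 0.0525 to 0.136. The KCS12-like gene PchiChr4G108240 was at 15.1, 28.5 and 13.1 FPKM in CK, 4.38, 3.87 and 7.70 after 1 day, and 7.41, 3.01 and 5.48 after 2 days. The groups of treated libraries overlapped each other and not CK. It fell when both treated groups were set against CK (log2 -1.73, SE 0.33, edgeR adjusted p = 0.0221), and the separate days missed the threshold (adjusted p = 0.0525 and 0.0512).

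A synthase with the opposite change was PchiChr1G003330, described as KCS11-like (chromosome 1, block 1, 115625836 to 115628409, minus strand). It stood at 8.40, 4.73 and 4.25 FPKM in CK, 19.9, 76.7 and 45.8 after 1 day, and 36.8, 38.8 and 37.8 after 2 days. Every treated library exceeded every CK library, and day 1 was spread more widely than day 2. It rose 9.26-fold after 1 day (log2 3.21, SE 0.52, edgeR adjusted p = 0.0163) and 7.16-fold after 2 days (log2 2.84, SE 0.51, adjusted p = 0.0236). The day 2 call was also lost without any 1 of the day 2 libraries, with adjusted p of 0.00625 to 0.113 over the 9 libraries left out.

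This gene's share of the summed KCS level was 1.06% on average in CK, 19.7% after 1 day and 11.4% after 2 days. The share was highest in day 1 library 2, at 38.0%, and between 7.29% and 15% in the other treated libraries. PchiChr3G075660 made up 27.3% of the sum in CK, 14.3% after 1 day and 22.4% after 2 days. These shares describe relative levels and were not tested.

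Both synthases beside PchiChr1G003330 on chromosome 1 had estimates of the other sign. PchiChr1G003310 was at 48.8, 101 and 74.0 FPKM in CK and at 6.64 to 50.2 in the treated libraries, with day 2 library 3 overlapping CK (log2 -1.53, SE 0.61, edgeR adjusted p = 0.182 after 1 day). PchiChr1G003320 was at 59.7, 55.6 and 42.0 FPKM in CK and at 1.72 to 34.7 when treated, without overlap (log2 -1.80, SE 0.72, adjusted p = 0.177). Neither passed the test. A similar contrast of signs appeared on chromosome 5, where PchiChr5G133990 was at 11.6, 12.0 and 11.8 FPKM in CK and 16.9 to 41.9 when treated, and PchiChr5G134010 at 4.42 to 5.78 in CK and 0.787 to 3.20 when treated. The groups of neither gene overlapped CK, and neither passed at either day (edgeR adjusted p of 0.0872 and 0.149 for the former, and 0.121 and 0.152 for the latter).

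Other abundant synthases did not pass. The KCS6-named gene PchiChr5G152030, whose Arabidopsis namesake makes the precursors of stem wax, was at 82.2, 115 and 72.3 FPKM in CK, 45.8, 15.9 and 60.6 after 1 day, and 61.2, 44.9 and 70.5 after 2 days. All treated values lay below CK, the highest at 70.5 against a lowest CK value of 72.3 (log2 -1.04, SE 0.42, edgeR adjusted p = 0.182 after 1 day). The KCS1-like PchiChr6G172470 was at 33.8 to 62.0 FPKM in CK and 9.16 to 33.2 when treated (log2 -1.26, SE 0.43, adjusted p = 0.130 after 1 day). A second KCS11-like gene, PchiChr6G178930, was at 11.8 to 22.8 FPKM in CK and 11.9 to 22.6 when treated, and its day 1 estimate was 0.15 on the log2 scale.

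**Figure D3:**
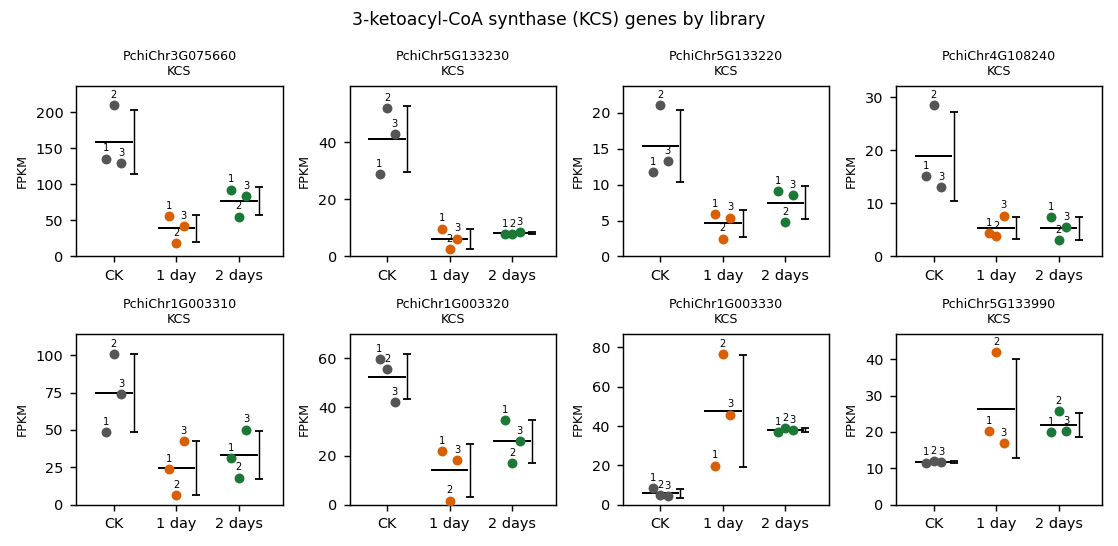
FPKM of 8 KCS genes in each library (points, numbered by library) for CK, MeJA for 1 day and MeJA for 2 days, with the group mean (line) and its SD (bracket), n = 3 in each group. The 4 genes of the upper row lie lower in every treated library than in every CK library, and PchiChr1G003330 lies higher in every treated library, at 19.9 to 76.7 FPKM against 4.25 to 8.40.

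ELO-type elongases are condensing enzymes of the kind known from yeast and animals. Of 5 tested, PchiChr6G180970 (chromosome 6, block 999833723, 9541681 to 9542586) was called higher at both days. It was at 0 in all CK libraries, at 0.356, 1.08 and 0.179 FPKM after 1 day, and at 0.314, 0.891 and 0.312 after 2 days. Against a floor of 3 counts over the CK group it was at least 29.9-fold higher after 1 day (79 counts) and at least 27.5-fold higher after 2 days (73 counts). It passed at both days (edgeR adjusted p = 0.0415 and 0.0441), at a level below 1.1 FPKM, and the day 1 call was lost with any 1 of the 9 libraries removed (adjusted p of 0.0512 to 0.118). For day 2 the call held only without day 1 library 2 (adjusted p = 0.0263), and reached 0.127 otherwise. The adjacent PchiChr6G180980 was at 0.161, 0.162 and 0 FPKM in CK and 0.461 to 3.78 when treated, without passing (adjusted p = 0.120 and 0.192). The most abundant of these elongases, PchiChr2G062130, was at 10.5 to 20.1 FPKM in CK and 10.5 to 44.0 when treated, and the groups overlapped.

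In the remaining steps of the elongation cycle, 1 gene passed the test. For the ketoacyl reductases (KCR), which carry out the step after condensation, 0 of 2 were called, and PchiChr5G152760 was at 32.3, 41.0 and 36.2 FPKM in CK, 23.5, 16 and 27.2 after 1 day, and 27.8, 14.3 and 25.7 after 2 days. The treated values lay below CK, and the log2 estimate of -0.60 (SE 0.24) at each day did not pass (edgeR adjusted p = 0.189 and 0.182). For the hydroxyacyl dehydratases (HCD), 0 of 3 were called, and PchiChr5G147070 was at 25.8 to 26.9 FPKM in CK, 24.5, 9.41 and 20.3 after 1 day, and 21.8, 12.1 and 23.0 after 2 days. All treated values lay below CK, by little in day 1 library 1, and the gene did not pass (log2 -0.42 and -0.37, SE 0.32 at each day, edgeR adjusted p = 0.432 and 0.501). It overlaps PchiChr5G147080 on the other strand, which stood at no more than 0.26 FPKM (log2 -2.08, SE 1.53, adjusted p = 0.416 after 1 day), and reads of the pair cannot be told apart here.

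The enoyl-CoA reductases (ECR) close the cycle, and 1 of 6 tested was called. PchiChr12G331920 (chromosome 12, block 500000001, 86669853 to 86673064) was at 12.5, 10.4 and 10.8 FPKM in CK, 12.5, 15.4 and 14.3 after 1 day, and 17.2, 18.9 and 18.1 after 2 days. Day 2 stood above CK in every library, while day 1 library 1 met the highest CK value. It rose after 2 days (log2 0.81, SE 0.18, edgeR adjusted p = 0.0460), a call kept only without day 1 library 2 (adjusted p = 0.0187) among the 9 libraries left out in turn, which gave up to 0.167. The more abundant ECR genes PchiChr12G334290 and PchiChr4G117720 were at 39.9 to 54.0 and 37.1 to 42.8 FPKM in CK and overlapped CK when treated.

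Members of more distant function showed no calls. The mitochondrial enoyl reductases, of a separate chain-building pathway in that organelle, had 0 of 2 tested called; PchiChr6G177630 was at 14.9 to 16.5 FPKM in CK and 14.3 to 18.1 when treated. Among acyl-CoA and palmitoyl-protein thioesterases, which release fatty chains, 0 of 2 were called. PchiChr7G217320 was at 57.5 to 67.5 FPKM in CK and 50.9 to 73.7 when treated.

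Fatty acyl-CoA reductases (FAR) make the primary alcohols of wax, and 1 of 7 tested was called. PchiChr10G287880 (chromosome 10, block 500000001, 381889138 to 381892485) was at 7.96, 14.5 and 9.22 FPKM in CK, 5.13, 2.67 and 4.39 after 1 day, and 4.08, 1.91 and 4.41 after 2 days. All treated libraries lay below CK. It fell for both treated groups (log2 -1.39, SE 0.31, edgeR adjusted p = 0.0342), with adjusted p of 0.0954 and 0.0596 at the separate days. Leaving out day 1 library 3 or any 1 of the day 2 libraries also ended that call (adjusted p of 0.0504 to 0.0609). It overlaps PchiChr10G287870 on the same strand, whose values of 19.4, 33.4 and 19.6 FPKM in CK and 5.44 to 13.8 when treated had the same order, and the counts of the pair are uncertain. PchiChr10G287870 did not pass (log2 -1.05, SE 0.30, adjusted p = 0.0656 for both treated groups). The most abundant reductase, PchiChr2G065320, was at 36.0 to 50.3 FPKM in CK and 17.2 to 47.5 when treated, and the groups overlapped.

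CER1, which in Arabidopsis forms the alkanes of wax, was represented by PchiChr5G138970. It was at 15.9, 22.8 and 10.9 FPKM in CK, 12.9, 2.82 and 13.5 after 1 day, and 12.1, 7.75 and 11.6 after 2 days. The groups overlapped, and no comparison passed (edgeR adjusted p = 0.432 and 0.529 at the separate days).

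Wax ester synthases of the WSD1 type join an alcohol to a fatty acid, and 0 of 9 tested were called at either day. Their median log2 estimate was -1.45 after 1 day and 0.01 after 2 days, with 8 and 4 of 9 negative. The most abundant, PchiChr12G322940, was at 23.5 to 29.7 FPKM in CK and 19.9 to 23.9 when treated, a difference near 0 (log2 -0.08 and -0.12). PchiChr1G012990 varied widely, at 11.5, 24.4 and 22.5 FPKM in CK, 1.85, 1.21 and 6.07 after 1 day, and 3.45, 2.80 and 24.3 after 2 days. Day 1 lay below CK in every library, while day 2 library 3 was inside the CK range, and neither day passed (edgeR adjusted p = 0.146 and 0.575).

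The chain-end hydroxylase of the CYP86A family, whose Arabidopsis members make cutin monomers, was PchiChr4G123250, described as CYP86A149 of Taxus. It was at 29.3, 40.2 and 25.8 FPKM in CK, 25.8, 3.38 and 22.7 after 1 day, and 27.0, 27.0 and 15.5 after 2 days. Its low value at day 1 came from library 2, and the groups overlapped (log2 -0.78, SE 0.61, edgeR adjusted p = 0.447 after 1 day).

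The CYP86B-type genes are named for an Arabidopsis hydroxylase of very-long-chain suberin monomers. Of 31 genes, 19 were tested, and 2 were called lower and 1 higher after 1 day, 0 after 2 days, and 5 lower and 1 higher for both treated groups. The 5 lower genes had means of at most 8.64 FPKM in CK, and the most abundant gene of the role was not among them. That gene, PchiChr9G250040, described as CYP86J5, was at 66.8, 36.9 and 31.7 FPKM in CK, 33.8, 51.6 and 28.8 after 1 day, and 40.7, 6.11 and 35.8 after 2 days, and the groups overlapped.

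PchiChr5G136810 (chromosome 5, block 1, 404510629 to 404512020) was at 4.29, 7.64 and 3.10 FPKM in CK, 1.1, 0.521 and 0.960 after 1 day, and 3.50, 2.02 and 2.17 after 2 days. Day 1 lay below CK, and day 2 library 1 was inside the CK range. It fell 5.30-fold after 1 day (log2 -2.41, SE 0.44, edgeR adjusted p = 0.0251), a call also lost without day 1 library 3, where the 9 libraries left out gave 0.0377 to 0.0763. Its neighbour PchiChr5G136790 fell for both treated groups (log2 -2.02, SE 0.49, adjusted p = 0.0438, and up to 0.199 with 1 library left out), from 1.1, 1.95 and 0.633 FPKM in CK to 0.173 to 0.720 when treated.

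PchiChr7G219630 was at 1.37, 0.998 and 0.626 FPKM in CK and 0.107 to 0.430 when treated, and PchiChr5G147810 at 7.15, 11.2 and 7.61 in CK and 0.414 to 4.34 when treated. Neither gene's groups overlapped. The former fell after 1 day (log2 -2.49, SE 0.57, edgeR adjusted p = 0.0465), which no leaving out of 1 library kept (adjusted p of 0.0535 to 0.157), and it overlaps the untested copy PchiChr7G219640. The latter fell only for both treated groups (log2 -2.09, SE 0.52, adjusted p = 0.0477, and up to 0.162 with 1 library left out).

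PchiChr6G182130 held 101 counts in CK, 0 after 1 day and 3 after 2 days, where its FPKM was at most 0.497. It was at least 29.6-fold lower after 1 day, and its day 2 ratio to CK was 0.0335 (95% exact binomial interval 0.0068 to 0.101, counting error only). It fell for both treated groups (edgeR adjusted p = 0.0311), a call also lost without day 2 library 2 or 3 (0.0619 and 0.0572), and missed the threshold at the separate days (0.0606 and 0.109).

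The higher CYP86B-type gene was PchiChr8G241420, with 2 counts in CK and 93 after 1 day. Its levels were 0, 0.0139 and 0 FPKM in CK, 0.506, 0.277 and 0.187 after 1 day, and 0.164, 0.0377 and 0.136 after 2 days. The ratio after 1 day was 52.8 (95% exact binomial interval 14.2 to 443, counting error only; edgeR adjusted p = 0.0430). Leaving out any 1 library ended the call, with adjusted p of 0.0577 to 0.152. The nearby PchiChr8G241400 and PchiChr8G241490 had positive estimates at both days and did not pass.

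CYP704 enzymes hydroxylate long fatty chains, and CYP704B1 of Arabidopsis serves the pollen wall. All 8 were tested: 2 were called lower after 1 day, 0 after 2 days, and 5 lower for both treated groups. The 6 genes on chromosome 8 all had negative estimates at day 1, and the 5 called are described as CYP704C10 of Taxus. Their summed level with the other members of the role was 92.6, 106 and 101 FPKM in CK, 39.3, 16.3 and 44.1 after 1 day, and 56.0, 32.2 and 59.3 after 2 days. Every treated sum was below every CK sum.

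PchiChr8G233540 (chromosome 8, block 1, 461267484 to 461288050) was at 19.9, 24.3 and 18.5 FPKM in CK, 8.52, 3.56 and 7.93 after 1 day, and 12.8, 7.78 and 10.9 after 2 days. The groups did not overlap between CK and either treatment. It fell 2.90-fold after 1 day (log2 -1.53, SE 0.31, edgeR adjusted p = 0.0308), and the call was also lost without day 1 library 3, day 2 library 1 or day 2 library 3, at adjusted p of 0.0504 to 0.0583. Its neighbour PchiChr8G233530 was at 12.7, 17.4 and 11.0 FPKM in CK, 4.43, 1.73 and 3.63 after 1 day, and 9.14, 3.65 and 6.49 after 2 days. It fell 3.87-fold after 1 day (log2 -1.95, SE 0.40, edgeR adjusted p = 0.0327), a call also lost without day 1 library 3 or day 2 library 3 (adjusted p of 0.0717 and 0.0609).

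The other called copies lay together on chromosome 8, block 1000000001, between 32778947 and 33118849. The most abundant, PchiChr8G239540, was at 31.0, 25.9 and 28.4 FPKM in CK, 13.6, 7.33 and 13.9 after 1 day, and 15, 7.82 and 17.5 after 2 days. Both treated groups were about equally far below CK. It fell for both treated groups (log2 -1.08, SE 0.24, edgeR adjusted p = 0.0351), a call also lost without day 1 library 3 or day 2 library 1 (0.0523 and 0.0598). PchiChr8G239560 and PchiChr8G239570 also fell in that comparison (log2 -1.77 and -1.86, edgeR adjusted p = 0.0449 and 0.0451, and up to 0.175 and 0.146 with 1 library left out). A further gene there, PchiChr8G239600, was at 2.42 to 3.35 FPKM in CK, 0 to 1.98 after 1 day and 2.84 to 4.37 after 2 days, without passing. Near-identical copies can share reads, so the split of counts among these neighbours is uncertain.

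Both members of the role on chromosome 6 had estimates of the other sign. PchiChr6G170940, described as CYP704B1, was at 0.134, 0.0459 and 0.216 FPKM in CK and 0.281 to 0.686 when treated, without overlap (log2 1.88, SE 0.68, edgeR adjusted p = 0.148 after 1 day). PchiChr6G170960, described only as unknown, was at 0.484 to 1.48 FPKM in CK and 1.02 to 10.7 when treated, with overlap. Neither passed.

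**Figure D4:**
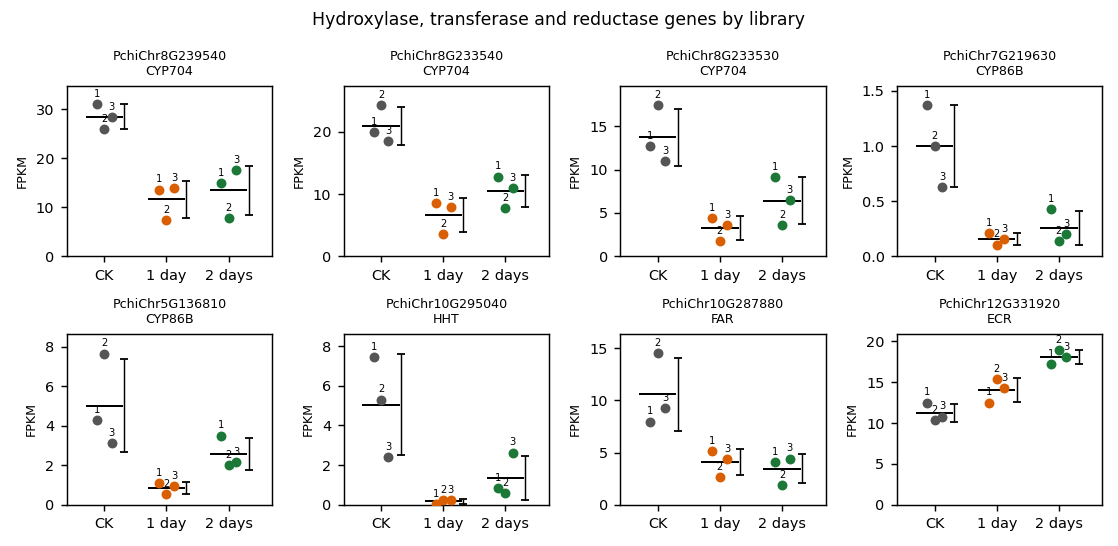
FPKM of 8 hydroxylase, transferase and reductase genes in each library (points, numbered by library) for CK, MeJA for 1 day and MeJA for 2 days, with the group mean (line) and its SD (bracket), n = 3 in each group. The CYP704 genes of the upper row lie lower in every treated library, and the ECR gene PchiChr12G331920 lies at 17.2 to 18.9 FPKM after 2 days against 10.4 to 12.5 in CK.

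Genes of the omega-hydroxypalmitate O-feruloyl transferase type (HHT) belong to a family of acyltransferases, whose named enzyme attaches ferulate to chain-end hydroxyl groups of suberin and cutin. Of 20 genes, 16 were tested; 2 fell after 1 day and 0 passed after 2 days. These 2 are neighbours on chromosome 10, block 1000000001. PchiChr10G295040 was at 7.46, 5.31 and 2.39 FPKM in CK, 0.0452, 0.215 and 0.242 after 1 day, and 0.854, 0.596 and 2.63 after 2 days. Day 1 was close to 0 in every library, while day 2 library 3 was inside the CK range.

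It fell 26.6-fold after 1 day (log2 -4.74, SE 0.85, edgeR adjusted p = 0.0237), a call also lost without day 1 library 3 (adjusted p of 0.0272 to 0.0873 over the 9 libraries left out). PchiChr10G295030 was at 3.45, 3.96 and 2.39 FPKM in CK, 0.261, 0.282 and 0.174 after 1 day, and 2.23, 0.313 and 0.973 after 2 days. Again day 1 was uniformly low and day 2 more variable. It fell 12.0-fold after 1 day (log2 -3.59, SE 0.67, edgeR adjusted p = 0.0268), a call also lost without day 1 library 1 or 3 or day 2 library 3 (adjusted p of 0.061, 0.0678 and 0.0515). The day 2 estimates of -1.78 and -1.41 did not pass (adjusted p = 0.189 and 0.203).

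The most abundant HHT-type gene in CK, PchiChr3G084690, was at 40.4, 41.3 and 38.6 FPKM there, 18.2, 1.18 and 17.9 after 1 day, and 8.83, 1.70 and 13.7 after 2 days. All treated values were under the CK range, with the lowest in the libraries numbered 2, and the spread left it uncalled (log2 -2.24, SE 0.93, edgeR adjusted p = 0.188 after 2 days). A gene described as an omega-hydroxypalmitate O-feruloyl transferase, PchiChr1G016130, was at 3.70 to 4.67 FPKM in CK and 0.392 to 1.38 after 1 day, and missed the threshold (adjusted p = 0.0538).

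Of the 20 genes, 4 are described as taxane acyltransferases rather than cuticle enzymes, and none of them passed. The most abundant, PchiChr1G006190, was at 0, 12.0 and 0 FPKM in CK, 78.2, 0.175 and 209 after 1 day, and 80.9, 1070 and 362 after 2 days (edgeR adjusted p = 0.340 and 0.213). The summed level of the role, 72.2 to 109 FPKM in CK and 159 to 1850 after 2 days, includes these 4 genes.

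Peroxygenases, also called caleosins, oxidise unsaturated fatty chains and sit on lipid droplets. Of 4 neighbouring genes on chromosome 5, 3 were tested and none was called. PchiChr5G151030 was at 6.49, 14.1 and 6.11 FPKM in CK, 16.9, 6.31 and 9.65 after 1 day, and 6.90, 1.75 and 7.16 after 2 days, and all groups overlapped.

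No member differed between 2 days and 1 day of MeJA in edgeR (0 of 103, and 0.0% of all genes), in DESeq2 or in limma, with 10 of 103 members and 949 of 22384 genes at an unadjusted p under 0.05. The median log2 difference, 2 days minus 1 day, was 0.32 in the members and -0.03 in all genes, and 72 of the 103 were positive. Day 2 lay above day 1 without overlap in 12 members (11.7%, against 4.24% of all genes) and below it in 2 (1.94%, against 3.51%). By role, 15 of 19 KCS and 8 of 8 CYP704 estimates were positive in this comparison. A gene called at day 1 and not at day 2, such as PchiChr10G295040 (2 days minus 1 day 2.95 on the log2 scale, edgeR adjusted p = 0.954), was therefore not shown to differ between the days.

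Members of a role were also compared by place in the genome. Counting members of the same role within 5 positions of each other among the genes of the expression table, 69 of the 132 formed 27 clusters of at most 4 genes. Genes of a cluster need not be adjacent, and gaps reached 7442256 bases. How often other genes cluster in this way was not tested. Neighbours called in the same direction were the KCS pair PchiChr5G133220 and PchiChr5G133230, the CYP86B-type pair PchiChr5G136790 and PchiChr5G136810, the HHT-type pair on chromosome 10 and the CYP704 copies on chromosome 8. In the KCS cluster of 3 on chromosome 1, by contrast, 1 gene rose and the 2 others had negative estimates that did not pass.

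Cuticle genes outside the pathway annotation were counted by description. Among genes named like cuticle regulators, 1 of 4 passed, PchiChr11G309830, described as R2R3MYB16 of Ginkgo. In Arabidopsis MYB16 promotes cuticle formation, but the gene was listed by its name alone. Whether it corresponds to the Arabidopsis gene was not tested. PchiChr11G309830 was at 4.71, 5.74 and 1.23 FPKM in CK, 22.8, 78.2 and 28 after 1 day, and 32.4, 34.6 and 49.4 after 2 days. All treated libraries were above CK. It rose at both days (log2 3.65, SE 0.71, edgeR adjusted p = 0.0289, and log2 3.44, SE 0.70, adjusted p = 0.0347), calls lost without any 1 CK library and without day 2 library 1 or 3 (adjusted p up to 0.113 and 0.124), and for day 2 also without day 2 library 2. With only the CK and day 1 libraries fitted, the day 1 value was 0.0776.

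Long-chain acyl-CoA synthetases activate fatty acids for elongation and export, and 1 of 6 fell. PchiChr9G272050, described as LACS1 (the enzyme of this name makes wax and cutin precursors in Arabidopsis), was at 55.6, 86.9 and 41.5 FPKM in CK, 13.2, 11.6 and 10.2 after 1 day, and 35.6, 13.4 and 9.25 after 2 days. No treated library reached CK. It fell after 1 day (log2 -2.25, SE 0.50, edgeR adjusted p = 0.0415), a call lost without any 1 CK library, any 1 day 1 library or day 2 library 2 (adjusted p up to 0.119).

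The remaining lists held few calls. Glycerol-3-phosphate acyltransferases include enzymes that join fatty chains to glycerol for cutin. The genes matched by this name had 0 of 4 tested called. They include PchiChr11G305310, which is described as a 1-acylglycerol-3-phosphate acyltransferase, a different enzyme. The GPAT6-named PchiChr4G115050 was at 83.6 to 127 FPKM in CK and 34.1 to 106 when treated. Lipid-transfer proteins had 0 of 5 and plastid fatty acid synthesis 0 of 8. Of 25 tested GDSL esterases, a family that includes the enzyme joining cutin monomers, 0 passed at either day, and PchiChr1G012430 rose for both treated groups (log2 2.25, SE 0.56, edgeR adjusted p = 0.0463). That call held only without day 1 library 2 or day 2 library 3 among the 9 libraries left out in turn, which gave adjusted p of 0.0369 to 0.133.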

How the data were processed

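Leaf RNA of 9 libraries was sequenced after TRIzol extraction and library preparation with a VAHTS V6 kit, per the labels' protocols. The submitters' processing notes name fastp, HISAT2 and HTSeq without order or settings. The sources used here give no versions, genome build, annotation or strand setting. The deposited table gives, for each gene and library, an estimated count and an FPKM value made by the authors. Of 715 low deposited counts, 100.0% exceeded the value computed back from FPKM by 0 to 1 (tolerance 0.05), so they are estimated counts rounded up, and were used as they stood. FPKM served for levels. Positions are the table's own: chromosome, block and a span within it.

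Tests used the two-sided quasi-likelihood F test of edgeR 4.0.16 (R 4.3.3), with TMM factors between 0.878 and 1.09 and filterByExpr at a minimum count of 10. The 9 libraries were fitted together with no covariate, and p-values were adjusted by Benjamini-Hochberg over 22384 genes. SE is the log2 fold change divided by the square root of F. The members, roles, lists and the rule for named genes (called members up to 15 per comparison and direction, the most abundant and the lowest-p gene of each role, 2 genes of each other list) were chosen with earlier results of these data known; further genes were named as neighbours or abundant members after their values were seen. In data simulated from these libraries, edgeR called 0 of 100 genes changed by 1 and 79 of 100 changed by 3 on the log2 scale for day 1 against CK (22095 genes). Where a group held 0 counts of a gene, a floor of 3 counts over the group was used. Alternatives were median-of-ratios factors, DESeq2 1.42.0, limma 3.58.1 on log2(FPKM + 1) and log2(FPKM + 0.1), other count filters, the replicate number as a block, fits of the compared groups only and each library left out. Leaving out both treated libraries 2 was added after the data were seen. No sequences were used here.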

Additional observations from a re-analysis of the deposited data

How the results depend on the processing

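Against the 12, 4 and 21 members called at day 1, at day 2 and for both treated groups, DESeq2 called 35, 19 and 37. DESeq2 took in all 132 members, and its calls over all genes were 3722, 3932 and 4801, against 1196, 1107 and 1875. Fits of the compared groups only called 2 at day 1 and 8 at day 2 (534 and 1945 over all genes). The count without both treated libraries 2 was 11 at day 2, 16 at day 1 and 25 for both treated groups (2430, 1803 and 3436 over all genes). Leaving out each library in turn gave 0 to 10, 0 to 13 and 1 to 24 members. Over all genes it gave 134 to 1193, 48 to 2893 and 312 to 2682. Between the days, 0 members were called under every alternative, and of all genes only 53, in DESeq2. Deviations from the group means correlated at -0.123 to 0.307 between same-numbered libraries and at -0.333 to 0.151 between differently numbered ones. Between day 1 and day 2, same-numbered libraries 1, 2 and 3 gave 0.307, -0.018 and 0.262. The crossed pairs of libraries 1 and 3 gave -0.26 and -0.333. Deviations from a group mean sum to 0, so the crossed values are tied to the same-numbered ones and add no separate evidence. Same-numbered pairs with CK reached at most 0.14. Whether the numbers pair the treated libraries is not labelled and was not settled. A replicate block called 3, 2, 0 and 12 members at day 1, at day 2, between the days and for both treated groups. Over all genes it called 747, 865, 0 and 1699. Only genes in the comparisons where they had been called were followed through the alternatives. These had passed the threshold beforehand, so a change of direction was unlikely, and none was seen. Of their 722 alternative values, 306 lost the call. Named genes without a call were not followed. With the low members included, the members' median log2 fold change for both treated groups was 0.07 in DESeq2 and 0.05 without a count filter, against -0.38, and at day 2 it was 0.09 and 0.06, and 0.01 without CK library 2, against -0.13. The cause of these shifts was not tested. In simulated data, changes of 1 on the log2 scale were called for 0 to 6 of 100 genes, so changes of that size may be missed. Fewer genes were changed there than were called against CK in the real data, which makes the adjusted threshold stricter. The simulation therefore sets no detection limit for these libraries. In the real data edgeR called PchiChr12G331920 at 0.81 after 2 days and PchiChr8G239540 at -1.08 for both treated groups.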
